A study of Homo sapiens with 14 samples.

Results

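The 31 genes described here are named members of the p53 pathway, almost all of them direct transcriptional targets of p53, together with its partner MDM4. They were taken from a list of symbols matched to the gene identifiers of the count table, and all 31 were found among its 63140 genes and had enough reads to be tested, as had 18321 genes in all. They were measured by bulk RNA sequencing in HEK293T, a human embryonic kidney cell line that expresses the SV40 large T antigen, a viral protein that binds p53. All groups therefore share that antigen, and all were collected 24 h after transfection of an RNA duplex. The miR-34a-RS group (4 libraries, replicates 1, 2, 3 and 5) received a miR-34a duplex in which guide residues 13 and 14 were exchanged for rSpacer, an abasic residue that has a backbone and no base. The miR-34a-WT group (5 libraries) received the duplex with its natural bases, and the control group (5 libraries) received AllStars, a commercial negative control siRNA. The study asked how much pairing beyond the seed adds to the effect of a microRNA.

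p53 is a transcription factor that is held low by the ubiquitin ligase MDM2 and its partner MDM4. When DNA is damaged, p53 is released and raises genes that arrest the cell cycle, repair DNA, change metabolism or start cell death, and it also raises MDM2, which closes a feedback loop. The gene of miR-34a is itself a p53 target, so the miRNA acts within the same pathway, and it binds messenger RNAs mainly through its seed. In cells with large T antigen p53 is bound by the viral protein, and its targets are known to be transcribed at a basal level.

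The guide is shown first with its seed, positions 2 to 8 from the 5′ end, in capitals, and then with the positions that were abasic in miR-34a-RS in capitals. Both lines are the RefSeq sequence of hsa-miR-34a-5p (GRCh38.p14, chr1:9151735-9151756, minus strand).
hsa-miR-34a-5p, seed: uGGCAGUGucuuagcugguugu
hsa-miR-34a-5p, positions 13 and 14: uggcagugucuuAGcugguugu

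A seed match was called 8mer where the 3′ UTR holds CACTGCCA, 7mer-m8 where it holds CACTGCC without the final A, 7mer-A1 where it holds ACTGCCA without the leading C, and 6mer where it holds ACTGCC alone. These are searched on the strand of the transcript, in the longest 3′ UTR of each gene in GENCODE 29. The sites of the 4 members below, with the match in capitals, show the spread of site types, from the 5 8mers of MDM4 to the single 6mer of BTG2 (GRCh38; chr1:204549225-204549254, chr1:204553220-204553249, chr1:204553913-204553942, chr1:204553947-204553976 and chr1:204554534-204554563 for MDM4, chr5:157393814-157393843 for CYFIP2, chr1:28281813-28281842 for SESN2 and chr1:203308365-203308394 for BTG2, all on the plus strand).
MDM4, 8mer 1: attctctctccacgtctgatatCACTGCCA
MDM4, 8mer 2: tgcggtacagattttttttactCACTGCCA
MDM4, 8mer 3: agttgagccatgccagcctccaCACTGCCA
MDM4, 8mer 4: cttctgtaatgtaagattgagtCACTGCCA
MDM4, 8mer 5: tttacaaatgtctggaattttgCACTGCCA
CYFIP2, 7mer-m8: gctttgaacaaatcagtcatagCACTGCCt
SESN2, 7mer-A1: atggctacattgccaaacctctgACTGCCA
BTG2, 6mer: cagggaactccaggtcctttattACTGCCt

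The total count per library was 22.24 to 36.26 M reads, and mitochondrially encoded genes took 2.19 to 3.3% of it. All 7 markers of embryonic kidney and of this line were above 1 CPM (reads of the gene per 1 M reads, after scaling of the libraries by TMM), 1 of 5 fibroblast markers was (COL1A1, with COL1A2 at 0), and none of 3 liver markers was. The summed level of the 7 line markers was 238.2 to 263.0 CPM with miR-34a-RS, 239.9 to 269.5 with miR-34a-WT and 304.3 to 325.2 in control. In bulk RNA, fewer expressing cells and less RNA per cell cannot be told apart. The part of this difference in the members' results was not tested. Levels below are in CPM, and a difference is a log2 fold change with its standard error (SE). A gene is said to have risen or fallen where its p, adjusted by the Benjamini-Hochberg method over all 18321 genes in edgeR's quasi-likelihood test, was under 0.05. Whether replicates came from separate cultures is not in the labels, and p-values therefore speak of library spread, some of which may be technical. The kit does not mark strand, so reads of the 9 members that overlap a gene on the opposite strand (MDM2, FBXO22, TP53I3, XPC, POLH, FAS, TNFRSF10B, PIDD1 and CYFIP2) cannot be assigned with certainty.

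All 31 members were detected in control cells. Every group carries large T antigen, so whether these levels are basal was not tested. Per kilobase of exon, the highest of the 31 was CCNG1, which encodes cyclin G1, with 103.1 ± 1.75 CPM per kb in control (SD, n = 5). TRIAP1 followed with 54.3 ± 1.05, SESN2 with 35.5 ± 4.74, AEN with 24.6 ± 1.87 and TNFRSF10B with 20.9 ± 1.32 CPM per kb. The means of these 5 lay farther apart than their SDs reach. BTG2 (15.5 ± 1.62), CDKN1A (14.7 ± 2.25) and POLH (14.4 ± 0.395) did not differ beyond their spread, nor did MDM2 (13.2 ± 0.524), CYFIP2 (13.1 ± 0.534) and PIDD1 (12.9 ± 1.33 CPM per kb). At the low end stood FAS with 1.95 ± 0.107, PLK3 with 1.53 ± 0.249, PLK2 with 0.815 ± 0.0627 and GDF15 with 0.285 ± 0.125 CPM per kb. GDF15, a secreted stress cytokine, had as few as 7 reads in a library, and every other member had at least 81. The order depends on the annotated length, which is the union of the exons of all isoforms. MDM2, for example, had 175.0 ± 6.96 CPM in control before division by 13284 bases, and CCNG1 had 319.1 ± 5.42 before division by 3096.

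With either miR-34a duplex the members did not move as a block: most did not pass the test, several well-known targets fell, and a few rose. With miR-34a-RS against control 7 members fell (22.6%) and 3 rose (9.68%), where 18.4% and 16.2% of all tested genes did. With miR-34a-WT against control 11 fell (35.5%) and 4 rose (12.9%), where 21.3% and 18.9% of all tested genes did. The count of 11 was 7 without miR-34a-WT replicate 4. The median log2 fold change over the 31 was -0.069 with miR-34a-RS and -0.061 with miR-34a-WT, against -0.014 and -0.019 over all tested genes. Both comparisons use the same 5 control libraries. All 10 members called with miR-34a-RS were also called with miR-34a-WT in the same direction, and 16 of the 31 were called in neither. With the replicate number as a block in the fit, 11 members fell with miR-34a-RS, where 22.0% of all tested genes did. With miR-34a-WT and the block 14 fell, where 25.4% did. The added members were CDKN1A, MDM4, GADD45A and FDXR with miR-34a-RS and TIGAR, XPC and PHLDA3 with miR-34a-WT.

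**Figure D1:**
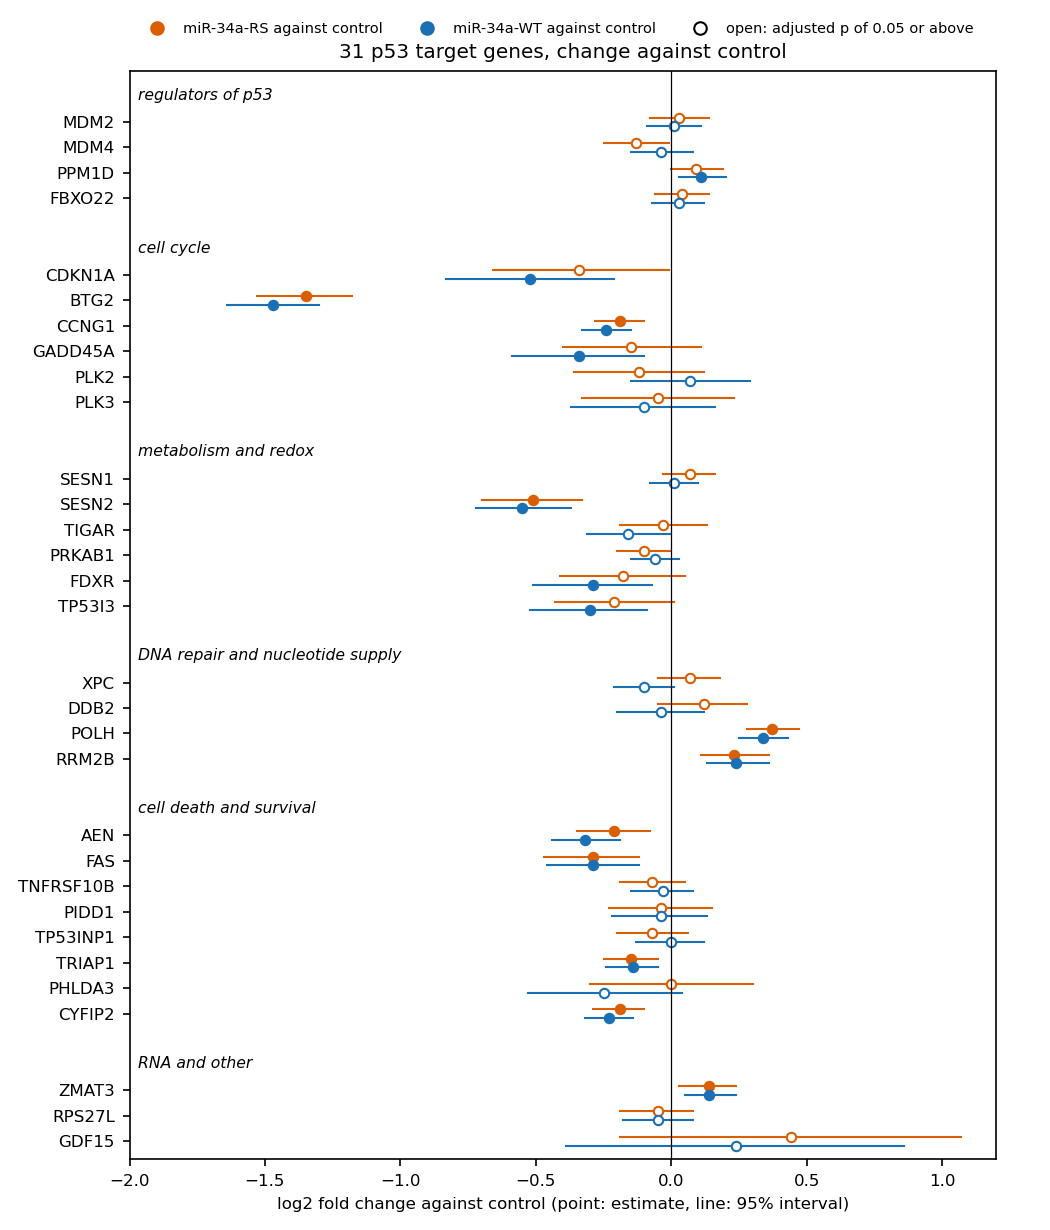
Log2 fold change against control (x axis) of the 31 members, grouped by role, for miR-34a-RS (upper mark of each pair) and miR-34a-WT (lower mark). Lines are 95% intervals, filled points have an adjusted p under 0.05, and BTG2 lies farthest from 0 with -1.35 and -1.47.

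Among the regulators of p53, MDM2 and MDM4 showed no change that passed the test. MDM2 had 197.2, 178.8, 170.9 and 169.7 CPM in miR-34a-RS libraries, 190.4, 176.0, 185.4, 167.1 and 163.5 CPM in miR-34a-WT libraries and 181.4, 177.3, 181.2, 167.2 and 168.1 CPM in control libraries. The 3 groups overlapped throughout. The log2 fold change was 0.03 with miR-34a-RS (95% interval -0.08 to 0.14, adjusted p = 0.673) and 0.01 with miR-34a-WT (95% interval -0.09 to 0.11, adjusted p = 0.883). MDM2 overlaps CPM, the carboxypeptidase M gene, over 133 bases on the opposite strand.

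MDM4, which binds p53 and blocks its transactivation domain, carries the most seed matches of the 31: 5 8mers, 2 7mer-A1 matches and 1 6mer in a 3′ UTR of 9419 bases. The first 8mer lies in 3 of its 10 annotated coding transcripts, the next 3 in 8 and the last in 7, so its match count depends on the isoform, which counts per gene do not resolve. It had 92.0, 84.1, 76.7 and 79.9 CPM in miR-34a-RS libraries, 99.3, 86.0, 86.8, 88.8 and 83.3 CPM in miR-34a-WT libraries and 98.5, 86.5, 85.1, 89.1 and 96.4 CPM in control libraries. The groups overlapped, and miR-34a-RS replicates 2, 3 and 5 were below every control library. Its log2 fold change was -0.13 (SE 0.06, adjusted p = 0.0949) with miR-34a-RS and -0.04 (SE 0.06, adjusted p = 0.653) with miR-34a-WT. Without miR-34a-RS replicate 1 the first became a call, with a log2 fold change of -0.17. The only other tested gene with 5 8mers, the ion channel gene HCN3, named here for that number of sites, fell, with log2 fold changes of -0.62 (adjusted p = 7.62e-09) for miR-34a-RS and -0.73 (adjusted p = 1.41e-10) for miR-34a-WT. HCN3 has a 3′ UTR of 1385 bases. Of the 8 tested genes with 3 or more 8mers, MDM4 among them, 5 fell with each duplex (62.5%).

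PPM1D encodes the phosphatase WIP1, which removes activating phosphates from p53 and its kinases. Its level was 59.9, 63.6, 60.1 and 58.3 CPM with miR-34a-RS, 62.3, 63.0, 60.8, 59.5 and 60.9 CPM with miR-34a-WT and 57.5, 57.7, 58.9, 54.2 and 54.9 CPM in control. All miR-34a-WT libraries were above all control libraries, and miR-34a-RS replicate 5 was below the highest control library. PPM1D rose by 0.11 (SE 0.04, adjusted p = 0.0357) with miR-34a-WT, and the value with miR-34a-RS was 0.09 (SE 0.04, adjusted p = 0.111). The miR-34a-WT call was lost without control replicate 4 or 5, without miR-34a-WT replicate 1 or 5 and without the filter on low counts, with 0.10 to 0.12 on the log2 scale. A correction of each library for the GC content and length of 3′ UTRs was chosen after seeing the data. With it the miR-34a-RS value was 0.12 and called (adjusted p = 0.00893). FBXO22, a ubiquitin ligase subunit that acts on methylated p53, has an 8mer and had 111.2 ± 5.03 CPM with miR-34a-RS (SD, n = 4), 110.3 ± 3.58 with miR-34a-WT and 108.1 ± 5.93 in control (SD, n = 5 each), a range within the spread of the libraries.

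The cell cycle members held the widest difference of the list. BTG2, an antiproliferative cofactor of messenger RNA deadenylation, had 13.9, 18.1, 16 and 19.2 CPM with miR-34a-RS, 13.7, 16.4, 14.4, 15.9 and 16.6 CPM with miR-34a-WT and 36.3, 43.7, 42.8, 42.5 and 48.8 CPM in control. Every library with either duplex was below every control library. BTG2 fell, with a log2 fold change of -1.35 (SE 0.09, adjusted p = 4.9e-12) for miR-34a-RS and -1.47 (SE 0.08, adjusted p = 2.4e-13) for miR-34a-WT, which left 0.392 and 0.361 of the control level. Its 3′ UTR holds no 7mer or 8mer match and a single 6mer.

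CDKN1A encodes p21, the inhibitor of cyclin-dependent kinases through which p53 arrests the cycle. It had 26.0, 43.7, 35.4 and 36.7 CPM with miR-34a-RS, 24.7, 36.2, 31.9, 30 and 33.2 CPM with miR-34a-WT and 35.2, 49.7, 43.8, 42.2 and 52.8 CPM in control. The groups overlapped. Control replicate 1, at 35.2 CPM, lay within the range of both others, and control replicate 4, at 42.2 CPM, within that of miR-34a-RS. Replicate 1 was the lowest library of each group. CDKN1A fell by 0.52 on the log2 scale with miR-34a-WT (SE 0.14, adjusted p = 0.0106). The value with miR-34a-RS was -0.34 (SE 0.15, adjusted p = 0.104), and without miR-34a-RS replicate 2 it was -0.45 and passed the test. Its 3′ UTR has no seed match of any of the 4 types.

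Cyclin G1, which recruits a phosphatase to MDM2, comes from CCNG1, with 298.2, 281.9, 266.2 and 272.5 CPM with miR-34a-RS, 279.2, 289.9, 261.8, 268.6 and 249.7 CPM with miR-34a-WT and 311.1, 324.1, 321.5, 322.8 and 315.9 CPM in control. All control libraries were higher than all others. CCNG1 fell by 0.19 (SE 0.05, adjusted p = 0.00203) with miR-34a-RS and by 0.24 (SE 0.04, adjusted p = 6.57e-05) with miR-34a-WT. Its 3′ UTR has a pair of 6mers.

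GADD45A, which encodes a stress sensor that binds proliferating cell nuclear antigen, had 16.3, 23.3, 17.1 and 18.1 CPM with miR-34a-RS, 15.5, 20.1, 15, 15.5 and 15.3 CPM with miR-34a-WT and 17.1, 25.4, 19.4, 18.4 and 22.9 CPM in control. Replicate 2 was the highest of every group. It fell by 0.34 with miR-34a-WT (SE 0.12, adjusted p = 0.024), and the value with miR-34a-RS was -0.15 (SE 0.12, adjusted p = 0.38). The call was lost on leaving out control replicate 2 or 5 or miR-34a-WT replicate 1, 3, 4 or 5, with -0.33 to -0.24. The polo-like kinase genes were low, PLK2 with 3.59 ± 0.49, 4.09 ± 0.596 and 3.88 ± 0.299 CPM and PLK3 with 5.15 ± 0.919, 4.97 ± 0.844 and 5.33 ± 0.866 CPM in miR-34a-RS, miR-34a-WT and control (SD, n = 4, 5 and 5), and neither passed the test.

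Of the members in metabolism and redox control, SESN2 fell with both duplexes and its paralogue SESN1 did not pass the test with either. SESN2 encodes sestrin 2, a leucine sensor that restrains mTORC1. It had 77.3, 95.8, 80.4 and 90.0 CPM with miR-34a-RS, 75.9, 92.4, 78.7, 81.9 and 90.6 CPM with miR-34a-WT and 99.2, 138.7, 117.9, 119.2 and 137.8 CPM in control. No library with a duplex reached the lowest control library, and replicate 2 was the highest and replicate 1 the lowest in each group. SESN2 fell by 0.51 (SE 0.09, adjusted p = 0.000101) with miR-34a-RS and by 0.55 (SE 0.08, adjusted p = 1.83e-05) with miR-34a-WT. It has a 7mer-A1 in its 3′ UTR and a match to positions 2 to 8 in its coding sequence. Of the 6 members with such a coding match, SESN2 and AEN fell with both duplexes. MDM4, PIDD1, PLK3 and XPC were called with neither duplex against control. Of 2532 tested genes with a coding match, 31.5% fell with miR-34a-RS and 38.2% with miR-34a-WT. SESN1 had 41.4 ± 1.54 CPM with miR-34a-RS (SD, n = 4), 39.9 ± 1.3 with miR-34a-WT and 39.6 ± 1.4 in control (SD, n = 5 each), with 95% intervals of -0.03 to 0.16 and -0.08 to 0.10 on the log2 scale.

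FDXR, the mitochondrial ferredoxin reductase, had 28.3, 35.0, 36.1 and 39.0 CPM with miR-34a-RS, 26.2, 36.2, 32.1, 31 and 34.1 CPM with miR-34a-WT and 33.7, 41.8, 37.1, 35.1 and 49 CPM in control. TP53I3, a quinone oxidoreductase first found as a p53-induced gene, had 4.53, 6.37, 5.24 and 5.48 CPM with miR-34a-RS, 4.53, 4.69, 5.57, 4.88 and 5.56 CPM with miR-34a-WT and 5.37, 6.08, 5.65, 6.81 and 7.46 CPM in control. Groups overlapped for both genes, and replicate 1 was the lowest library of each group for both. FDXR fell by 0.29 (SE 0.10, adjusted p = 0.0321) and TP53I3 by 0.30 (SE 0.10, adjusted p = 0.0195) with miR-34a-WT. With miR-34a-RS the values were -0.18 (adjusted p = 0.227) for FDXR and -0.21 (adjusted p = 0.134) for TP53I3. The miR-34a-WT call of FDXR was lost without control replicate 2 or 5 or miR-34a-WT replicate 1, 3 or 4 (-0.28 to -0.21). With each library corrected for the GC content and length of 3′ UTRs, a setting chosen after seeing the data, FDXR was at -0.18 and still called. That of TP53I3 was lost without control replicate 4 or 5 or miR-34a-WT replicate 1, 2 or 4 (-0.28 to -0.24), and TP53I3 passed with miR-34a-RS without its replicate 2 (-0.29).

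TIGAR, which lowers glycolytic flux through fructose-2,6-bisphosphate, had 19.3 ± 2.4 CPM with miR-34a-RS (SD, n = 4), 17.7 ± 1.12 with miR-34a-WT and 19.6 ± 1.72 in control (SD, n = 5 each) and did not pass (adjusted p = 0.789 and 0.0953). PRKAB1, a subunit of the energy sensor AMPK, had 37.4, 37.1, 39.4 and 38.9 CPM with miR-34a-RS, 36.8, 40.3, 39.5, 40.6 and 39.2 CPM with miR-34a-WT and 39.4, 41.5, 42.3, 41.6 and 39.8 CPM in control. For PRKAB1 every miR-34a-RS library was at or below the lowest control library, and the difference of -0.10 (SE 0.05, adjusted p = 0.101) did not pass the test.

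The DNA repair and nucleotide supply members included genes that rose. POLH, which encodes the DNA polymerase eta that copies past ultraviolet lesions, had 64.7, 63.6, 66.0 and 69.3 CPM with miR-34a-RS, 65.4, 63.5, 61.5, 66.7 and 65.2 CPM with miR-34a-WT and 49.1, 52.6, 51.6, 51.1 and 49.8 CPM in control. The groups with a duplex were separate from control, and the replicates of each group lay close together. POLH rose by 0.37 (SE 0.04, adjusted p = 2.99e-07) with miR-34a-RS and by 0.34 (SE 0.04, adjusted p = 4.21e-07) with miR-34a-WT. It overlaps GTPBP2 on the opposite strand over 4 bases.

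RRM2B, the p53-inducible subunit of ribonucleotide reductase, had 85.2, 72.7, 70.8 and 72.5 CPM with miR-34a-RS, 76.8, 74.9, 82.9, 68.8 and 75.1 CPM with miR-34a-WT and 67.1, 64.4, 67.3, 61.1 and 59.9 CPM in control. All control libraries were lower than all others. RRM2B rose by 0.23 (SE 0.06, adjusted p = 0.00308) with miR-34a-RS and by 0.24 (SE 0.06, adjusted p = 0.00114) with miR-34a-WT. Neither RRM2B nor POLH has a seed match in its 3′ UTR. The damage recognition genes XPC and DDB2, which start nucleotide excision repair, did not pass the test against control (adjusted p of 0.156 to 0.698), and their libraries overlapped. DDB2 passed with miR-34a-RS against control without miR-34a-RS replicate 1 (0.21).

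In the cell death and survival group 4 of 8 members fell with each duplex, and none rose. Of all tested genes, 18.4% fell and 16.2% rose with miR-34a-RS, and 21.3% fell and 18.9% rose with miR-34a-WT. AEN, an apoptosis-enhancing nuclease, had 110.3, 138.1, 126.5 and 135.9 CPM with miR-34a-RS, 106.5, 129.0, 115.7, 118.8 and 122.7 CPM with miR-34a-WT and 134.3, 154.6, 145.7, 141.6 and 163.2 CPM in control. The miR-34a-WT libraries were all below control, and miR-34a-RS replicates 2 and 5 were within the control range. AEN fell by 0.21 (SE 0.07, adjusted p = 0.0134) with miR-34a-RS and by 0.32 (SE 0.06, adjusted p = 0.000167) with miR-34a-WT. The call with miR-34a-RS was lost without control replicate 2, without miR-34a-RS replicate 1 and after the same 3′ UTR correction (-0.18 to -0.11). With that correction the value of AEN with miR-34a-WT was -0.17 and still passed the test.

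FAS, the death receptor CD95, was low, with 7.62, 6.8, 5.65 and 7.0 CPM with miR-34a-RS, 6.81, 7.5, 6.23, 6.37 and 7.02 CPM with miR-34a-WT and 8.27, 8.33, 7.58, 8.83 and 8.45 CPM in control. Only miR-34a-RS replicate 1 reached into the control range. FAS fell by 0.29 (SE 0.09, adjusted p = 0.00908) with miR-34a-RS and by 0.29 (SE 0.08, adjusted p = 0.0062) with miR-34a-WT, and without miR-34a-RS replicate 3 the first was -0.21 and not called. It overlaps ACTA2, at 3.85 CPM, over 380 bases on the opposite strand. The 6mer of FAS is annotated in 1 of 4 coding transcripts.

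CYFIP2, a member of the WAVE complex that p53 induces, had 109.8, 122.0, 121.8 and 125.7 CPM with miR-34a-RS, 110.6, 121.4, 115, 115.5 and 121.7 CPM with miR-34a-WT and 131.2, 145.9, 138.7, 135.6 and 134.1 CPM in control. Control was separate from both other groups. CYFIP2 fell by 0.19 (SE 0.05, adjusted p = 0.00238) with miR-34a-RS and by 0.23 (SE 0.05, adjusted p = 0.000192) with miR-34a-WT. Its 7mer-m8 is annotated in 1 of 6 coding transcripts.

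TRIAP1, a small mitochondrial survival factor, had 70.7, 74.1, 66.3 and 71.6 CPM with miR-34a-RS, 70.8, 77.4, 70.5, 69.0 and 66.6 CPM with miR-34a-WT and 80.6, 77.6, 79.1, 77.0 and 77.3 CPM in control. Only miR-34a-WT replicate 2 reached into the control range. TRIAP1 fell by 0.15 (SE 0.05, adjusted p = 0.018) with miR-34a-RS and by 0.14 (SE 0.05, adjusted p = 0.0128) with miR-34a-WT. Without the filter on low counts both calls were lost, as was that of miR-34a-RS without control replicate 2 or miR-34a-RS replicate 3 and that of miR-34a-WT without its replicate 3 or 4 (-0.13 to -0.12 in all).

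The other 4 members of the group did not pass against control. TNFRSF10B, the death receptor DR5, had 103.0 ± 9.94 CPM with miR-34a-RS (SD, n = 4), 105.6 ± 4.01 with miR-34a-WT and 108.0 ± 6.83 in control (SD, n = 5 each). PIDD1, the scaffold of the PIDDosome, had 73.4 ± 11, 73.2 ± 6.23 and 75.6 ± 7.78 CPM in the same order, and it overlaps the abundant ribosomal protein gene RPLP2, at 513.55 CPM, over 107 bases on the opposite strand. TP53INP1, a p53 cofactor of stress responses, has an 8mer and had 20.1 ± 1.91 CPM with miR-34a-RS, 21 ± 1.09 with miR-34a-WT and 21.1 ± 0.745 in control. PHLDA3, an inhibitor of AKT signalling, had 29.5 ± 4.88, 24.8 ± 3.86 and 29.6 ± 4.81 CPM with miR-34a-RS, miR-34a-WT and in control.

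ZMAT3, an RNA-binding protein that controls splicing downstream of p53, had 50.1, 51.0, 49.1 and 49.3 CPM with miR-34a-RS, 49.3, 51.6, 54.2, 46.2 and 49.4 CPM with miR-34a-WT and 43.2, 47.1, 47.9, 44.3 and 44.1 CPM in control. Every miR-34a-RS library was above control, and miR-34a-WT replicate 4 was within its range. ZMAT3 rose by 0.14 (SE 0.05, adjusted p = 0.0373) with miR-34a-RS and by 0.14 (SE 0.05, adjusted p = 0.0178) with miR-34a-WT, although its 3′ UTR holds a 7mer-m8 in 1 of 2 coding transcripts. The first call was lost without control replicate 1, 4 or 5 or miR-34a-RS replicate 2, 3 or 5 (0.12 to 0.14), and the second with that 3′ UTR correction (0.11). RPS27L, a ribosomal protein paralogue, had 41.2 ± 2.59 CPM with miR-34a-RS (SD, n = 4), 41.2 ± 3.26 with miR-34a-WT and 42.6 ± 3.62 in control (SD, n = 5 each). GDF15 had 0.802 ± 0.325, 0.687 ± 0.222 and 0.594 ± 0.26 CPM, and its 95% intervals against control were wide, -0.19 to 1.07 with miR-34a-RS and -0.39 to 0.86 with miR-34a-WT on the log2 scale.

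**Figure D2:**
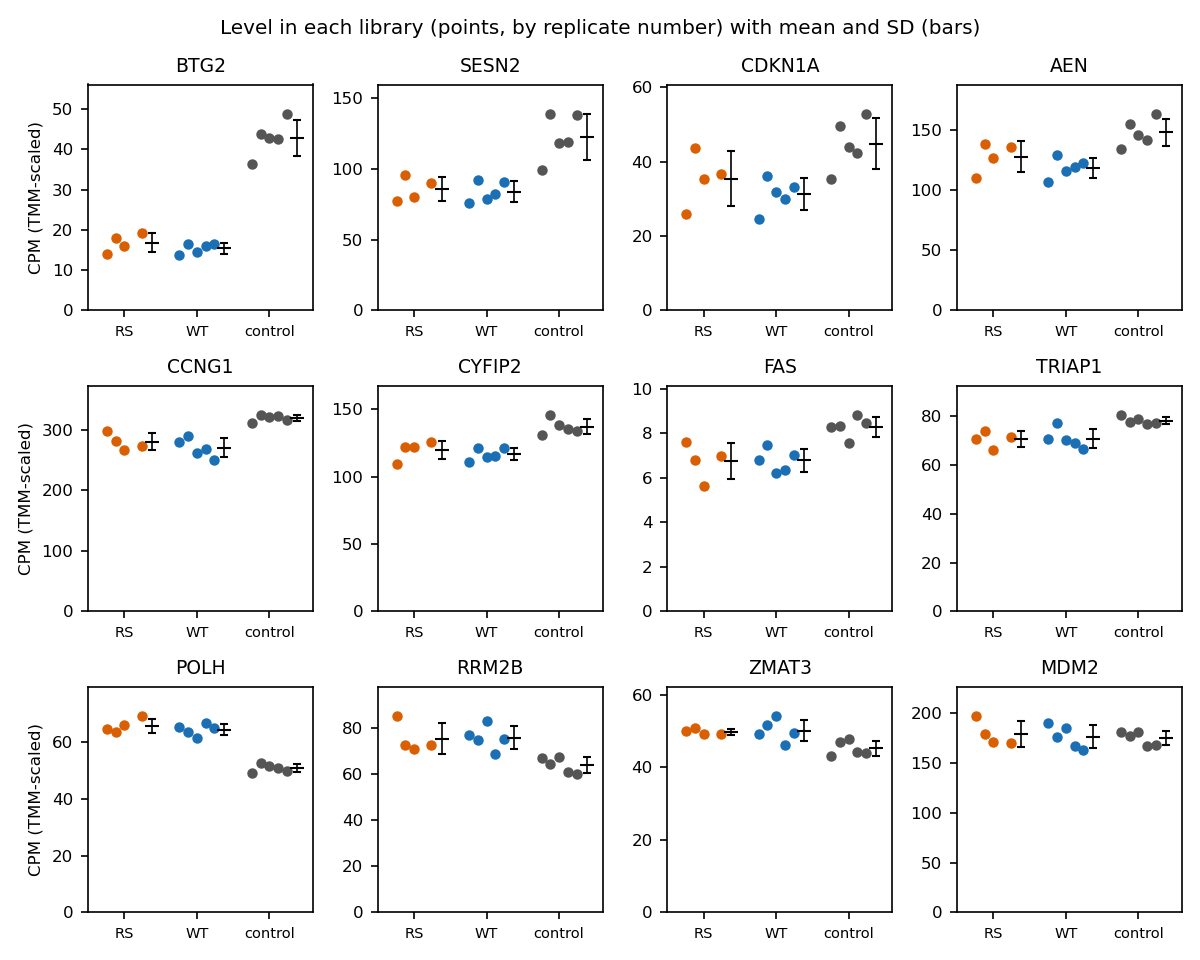
CPM in each library (y axis, from 0) of 12 members for miR-34a-RS (RS), miR-34a-WT (WT) and control, with points placed left to right by replicate number and bars for the mean and SD. Control is separate from both other groups for BTG2, SESN2, CCNG1, CYFIP2, POLH and RRM2B, and MDM2 overlaps in all 3 groups.

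Seed matches were about as common among the members as elsewhere, since 6 of 31 (19.4%) hold an 8mer or 7mer-m8 in the 3′ UTR, where 17.7% of the 13611 tested genes with an annotated 3′ UTR do. Of these 6, CYFIP2 fell and ZMAT3 rose with each duplex, and MDM4, FBXO22, TP53INP1 and XPC did not pass against control. Among all 2412 tested genes with such a match, 41.3% fell with miR-34a-RS and 45.5% with miR-34a-WT. The 3 members with an 8mer, MDM4, FBXO22 and TP53INP1, were called with neither duplex, where 50.1% and 52.2% of the 820 genes with an 8mer fell. The 8mer of FBXO22 is annotated in 1 of its 3 coding transcripts, and counts per gene do not show which is expressed. In the 3′ UTR, the strongest match of 5 members is a 7mer-A1 or a 6mer (SESN2, BTG2, CCNG1, AEN and FAS). All 5 fell with both duplexes, where 30.7% and 31.6% of the 2368 genes of that class did. Of the 20 members with no match in the 3′ UTR, 1 fell and 2 rose with miR-34a-RS, where 14% of 8831 such genes fell and 23.1% rose. With miR-34a-WT 5 fell and 3 rose, where 17.3% of such genes fell and 27.1% rose. No member has an 8mer or 7mer-m8 with AGCT, the match to guide positions 13 to 16, at 1 to 15 bases upstream, and 1.64% of genes with a 3′ UTR do. A match here is a run of letters in an annotated 3′ UTR and not a measured binding site.

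**Figure D3:**
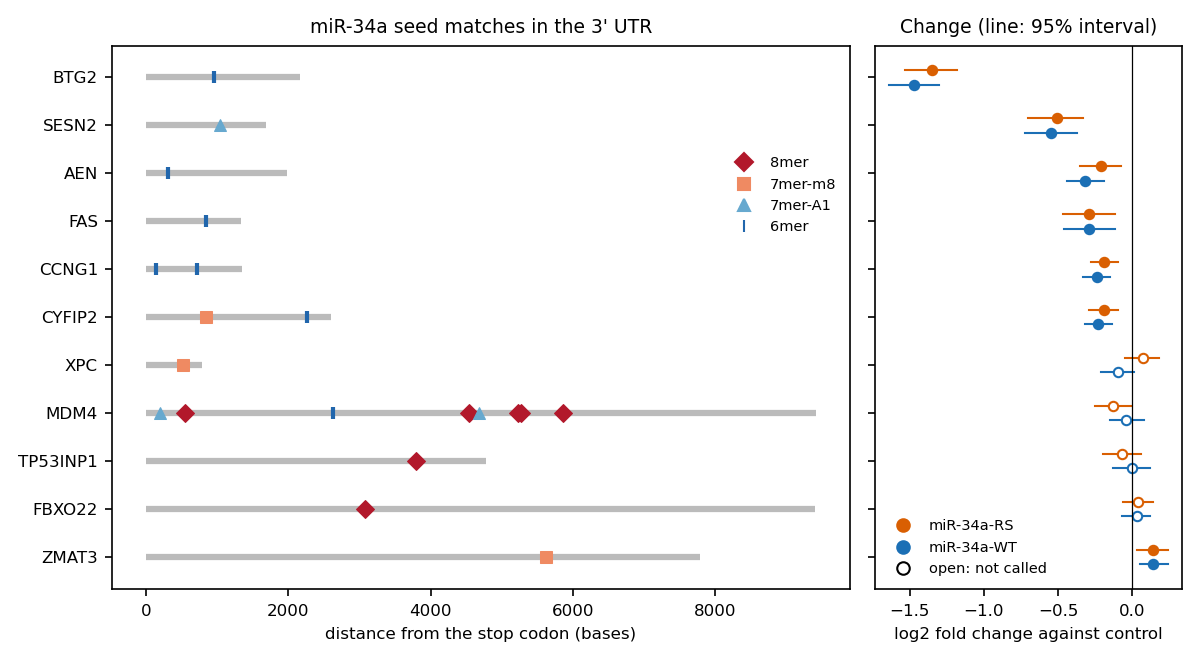
Left, seed matches by type along the 3′ UTR (x axis, bases from the stop codon) of the 11 members that have any. Right, log2 fold change against control with 95% intervals for miR-34a-RS (upper mark) and miR-34a-WT (lower mark), where the 5 8mers of MDM4 stand beside -0.13 and -0.04 and the single 6mer of BTG2 beside -1.35 and -1.47.

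The p53 consensus decamer, the 10-base unit of a p53 response element, was searched around the annotated starts, in windows of 250 bases before to 50 after the start from RefSeq (GRCh38.p14). A single decamer had to match without a mismatch. In a pair, with a spacer of at most 13 bases, each decamer could have at most 1 mismatch outside the 4 central bases. The decamer pattern is its own reverse complement, so the search covers both strands. A single decamer was found for 7 of the 25 members with a window and in 18.9% of their 37 windows, where 6.6% of all 35116 windows hold it. The members were listed as p53 targets, so a higher share among them cannot count as a result of these data. DDB2 alone had a pair of decamers, with a spacer of 1 base, at positions 6 to 26 of the transcript, which 0.9% of all windows hold. The stretches below have the decamers in capitals (DDB2 chr11:47214979-47214999, plus strand; the decamers of AEN at chr15:88621306-88621315, plus, FAS chr10:88991309-88991318, plus, FDXR chr17:74872996-74873005, minus, SESN1 chr6:109009028-109009037, minus, PLK2 chr5:58460209-58460218, minus, and RPS27L chr15:63157527-63157536, minus).
DDB2: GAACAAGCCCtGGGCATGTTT
AEN: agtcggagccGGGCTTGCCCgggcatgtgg
FAS: cggaactcctGGACAAGCCCtgacaagcca
FDXR: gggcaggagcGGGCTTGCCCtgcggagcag
SESN1: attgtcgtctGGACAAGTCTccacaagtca
PLK2: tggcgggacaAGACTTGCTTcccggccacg
RPS27L: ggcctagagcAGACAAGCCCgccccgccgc
Of these 7 genes, AEN and FAS fell with both duplexes, FDXR fell with miR-34a-WT, and DDB2, SESN1, PLK2 and RPS27L passed in neither comparison with control. Response elements farther from the start were not searched.

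The comparison of miR-34a-RS with miR-34a-WT asked whether the loss of bases 13 and 14 of the guide altered the members. In the fit over the 3 groups none of the 31 passed the test, where 1.03% of all tested genes were higher and 0.535% lower with miR-34a-RS. Of all genes called, 188 were higher and 98 lower, 65.7% higher, a share that was 75.7% with upper-quartile factors and 55.1% with DESeq2. The total of 286 was 730 without miR-34a-RS replicate 1, and 142 to 176 without miR-34a-RS replicate 2, 3 or 5 or miR-34a-WT replicate 1 or 3. DESeq2 called none of the members either, and 1 (XPC) had an unadjusted p under 0.05 in each. Differences ran from -0.19 to 0.25 on the log2 scale, and apart from GDF15 every 95% interval lay within -0.42 to 0.55. For BTG2 the difference was 0.12 (95% interval -0.06 to 0.30), for SESN2 0.03 (-0.15 to 0.22), for MDM4 -0.09 (-0.22 to 0.03) and for POLH 0.03 (-0.06 to 0.12).

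Libraries of these groups with the same replicate number deviated together from their group means, and with the number as a block 4 members were higher with miR-34a-RS and none lower, where 3.41% and 3.43% of all tested genes were. PHLDA3 was higher by 0.23 (SE 0.05, adjusted p = 0.00981), with 22.3, 33.0, 31.4 and 31.5 CPM in miR-34a-RS replicates 1, 2, 3 and 5 and 19.8, 30.2, 24.7, 23.1 and 26.4 CPM in the miR-34a-WT libraries. XPC, which recognises helix distortions, was higher by 0.17 (SE 0.04, adjusted p = 0.0132), with 54.9, 59.6, 56.3 and 62.8 CPM against 51.7, 53.7, 48.7, 51.2 and 55.1 CPM. In all 4 shared replicate numbers the miR-34a-RS library was the higher for both genes, while the groups as a whole overlapped.

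CDKN1A was higher by 0.16 with the block (SE 0.05, adjusted p = 0.041), and its libraries, given above, were higher with miR-34a-RS in each of the 4 shared numbers. DDB2, the damage sensor that works with XPC, was higher by 0.16 (SE 0.05, adjusted p = 0.0448), with 27.2, 34.8, 32.4 and 36.6 CPM with miR-34a-RS and 27.1, 31.2, 26.8, 28.4 and 32.9 CPM with miR-34a-WT. Replicate 1 differed least for DDB2. Without the block these 4 had adjusted p of 0.537 for PHLDA3, 0.166 for XPC, 0.721 for CDKN1A and 0.441 for DDB2, and XPC alone was also called there without miR-34a-RS replicate 1 (0.20). XPC overlaps LSM3 and XPC-AS1 on the opposite strand over 318 and 1140 bases.

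**Figure D4:**
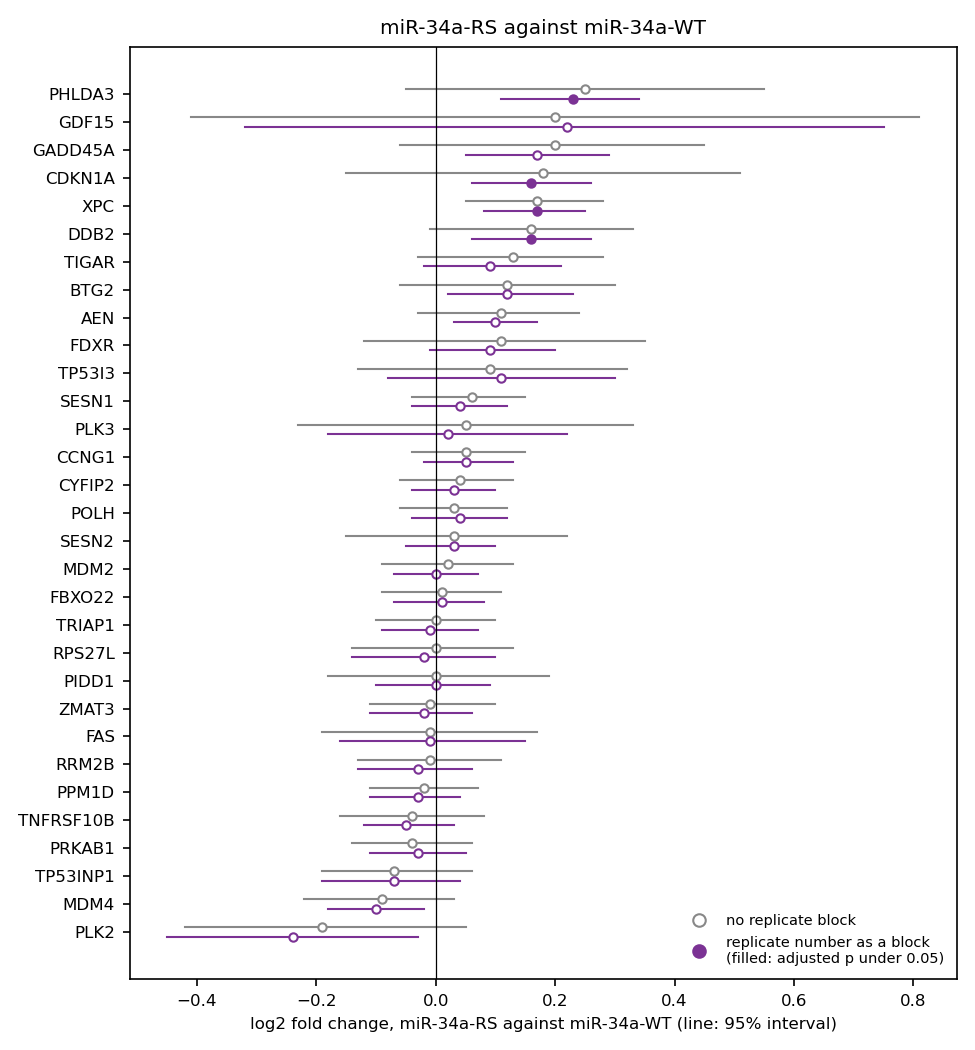
Log2 fold change of miR-34a-RS against miR-34a-WT (x axis) of the 31 members without (grey) and with (purple) the replicate number as a block, with 95% intervals. Filled points have an adjusted p under 0.05, and these are PHLDA3, XPC, CDKN1A and DDB2 with the block, at 0.16 to 0.23.

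Several members varied by replicate number in the same way in all groups. Replicate 1 was the lowest library of each of the 3 groups for 10 members (AEN, BTG2, CDKN1A, CYFIP2, FDXR, PHLDA3, PIDD1, SESN2, TNFRSF10B and TP53I3) and the highest for 2, MDM2 and MDM4. Replicate 5 was the highest in all 3 groups for BTG2, DDB2 and PIDD1, and replicate 2 for GADD45A and SESN2. The labels do not say what a replicate number stands for. The coefficient of variation within a group was 1.7 to 20.6% apart from GDF15, with a median of 7.62%.

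**Figure D5:**
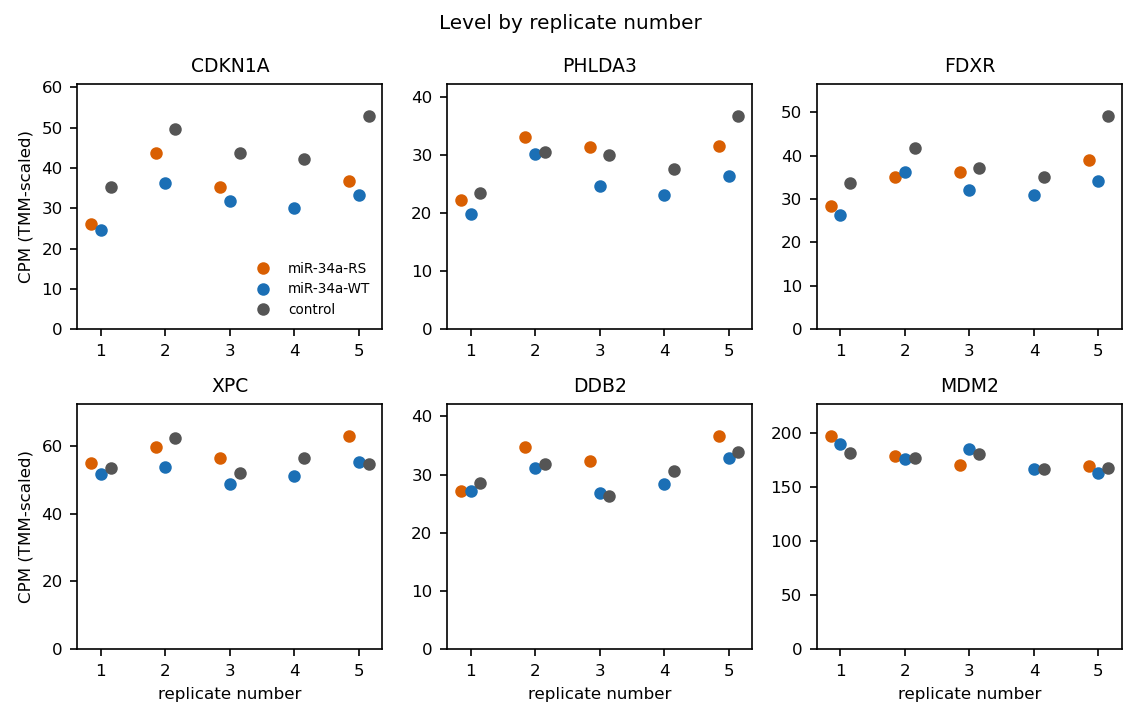
CPM (y axis, from 0) by replicate number (x axis, a name and not an order) of CDKN1A, PHLDA3, FDXR, XPC, DDB2 and MDM2 for miR-34a-RS, miR-34a-WT and control. Replicate 1 is the lowest of each group for CDKN1A, PHLDA3 and FDXR and the highest for MDM2.

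Other genes around p53 were read from 4 lists. Of 50 tested direct p53 targets outside the 31, 10 fell and 6 rose with miR-34a-RS and 15 fell and 9 rose with miR-34a-WT, which is 20% and 12%, and 30% and 18%. Over all tested genes these shares were 18.4% and 16.2% with miR-34a-RS and 21.3% and 18.9% with miR-34a-WT, so most of the list’s shares lay near the background. CDIP1, a proapoptotic target, had 23.4 ± 1.2 CPM with miR-34a-RS (SD, n = 4), 24.0 ± 1.12 with miR-34a-WT and 51.2 ± 4.93 in control (SD, n = 5 each). NINJ1, which encodes a plasma membrane rupture protein, had 12.2 ± 1.16, 9.5 ± 0.711 and 22.4 ± 2.8 CPM in the same groups. RBM38, an RNA-binding regulator of p21 messenger RNA, had 49.1 ± 3.89 CPM with miR-34a-RS, 28.5 ± 1.54 with miR-34a-WT and 59.3 ± 5.01 in control, and the difference of miR-34a-RS from miR-34a-WT was 0.78 on the log2 scale (SE 0.06, adjusted p = 4.61e-08).

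Of 36 regulators of the p53 protein 10 fell and 7 rose with miR-34a-RS (27.8% and 19.4%, against 18.4% and 16.2% of all tested genes). With miR-34a-WT 8 fell and 8 rose (22.2% each, against 21.3% and 18.9% of all tested genes), which is near the background. The deacetylase gene HDAC1 fell with both duplexes. It had 245.7 ± 6.36 CPM with miR-34a-RS (SD, n = 4), 246.8 ± 7.74 with miR-34a-WT and 471.4 ± 10.8 in control (SD, n = 5 each). SIRT1, a known miR-34a target, fell by 0.68 (SE 0.05, adjusted p = 2.24e-10) with miR-34a-RS and by 0.95 (SE 0.05, adjusted p = 1.22e-13) with miR-34a-WT, and the difference of miR-34a-RS from miR-34a-WT was 0.27 (SE 0.05, adjusted p = 0.00888). SETD7, a lysine methyltransferase of p53, rose by 0.60 and 0.69 (SE 0.05 each). Of 3 tested family partners 2 fell with each duplex: TP73, a p53 paralogue, had 17.9 ± 0.878 CPM with miR-34a-RS, 16.1 ± 0.72 with miR-34a-WT and 24.0 ± 1.96 in control, and CABLES1 fell by 0.28 and 0.27.

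The last list held cell cycle genes that p53 lowers through p21 and the DREAM complex, a repressor of E2F and CHR promoters. It also held subunits of DREAM itself (LIN9, LIN37, LIN52, LIN54, RBL1, RBL2 and E2F4). The list as a whole was mostly higher, and the subunits were not counted apart from the lowered genes. Of 25, 14 rose and 2 fell with miR-34a-RS (56% and 8%) and 15 rose and 3 fell with miR-34a-WT (60% and 12%). Of all tested genes 16.2% rose and 18.4% fell with miR-34a-RS, and 18.9% rose and 21.3% fell with miR-34a-WT. NEK2, a centrosomal kinase gene, had 116.1 ± 4.03 CPM with miR-34a-RS (SD, n = 4), 119.6 ± 3.91 with miR-34a-WT and 67.7 ± 1.3 in control (SD, n = 5 each). LIN54, a DNA-binding subunit of DREAM itself, rose by 0.49 (SE 0.07) and 0.53 (SE 0.06), and the phosphatase gene CDC25A fell by 0.88 and 0.70 (SE 0.04 each).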

How the data were processed

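Polyadenylated RNA of 14 HEK293T libraries was sequenced with the TruSeq RNA v2 kit, which does not mark strand, per the labels' protocols. The authors deposited whole-number read counts per gene, unnormalised as far as the values show. Per the submitters' processing notes, the software comprised featureCounts in Subread 2.0.3, STAR 2.7.11a and edgeR 3.42.4, with build GRCh38. The annotation and strand setting are not given in the sources used here. Symbols came from gene identifiers (62541 of 63140 matched).

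The 31 members and the 4 other lists were chosen with earlier results of these data known. The transcript of p53 itself is not reported here. All 31 members are named, those called or without overlap with every library, and of other lists the 3 genes with the smallest adjusted p. The main test was edgeR 4.0.16 under R 4.3.3 (TMM, filterByExpr, glmQLFit and glmQLFTest, robust, 1 fit of 3 groups, threshold 0.05), also tested on simulated data. CPM per kb used the union exon length of GENCODE 29. The common biological coefficient of variation was 0.062. No replicates agreed within sampling noise (chi-square per degree of freedom 2.73 to 14.24 over 26 pairs).

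Replicate numbers recur across groups without a stated meaning. Deviations from the group means over 11259 genes correlated at 0.373 to 0.716 between same-numbered miR-34a-RS and miR-34a-WT libraries (mean 0.56, other pairs -0.13), all 4 best with their own number, so the block is given for that comparison. Alternatives were DESeq2 1.42.0, upper-quartile factors, no filter, 2 groups only, the block, each library left out and, chosen after seeing the data, a correction of each library for the GC content and length of 3′ UTRs.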

Additional observations from a re-analysis of the deposited data

Results flagged for a closer look

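Of 93 groups of libraries checked (31 members in 3 groups), 3 held a library far from the others of its group, and chance flags about 1 in 20 groups. GADD45A had 20.1 CPM in miR-34a-WT replicate 2, where the other 4 libraries had 15 to 15.5 CPM. RRM2B had 85.2 CPM in miR-34a-RS replicate 1, where the other 3 had 70.8 to 72.7 CPM. PHLDA3 had 22.3 CPM in miR-34a-RS replicate 1, where the other 3 had 31.4 to 33.0 CPM.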

How the results depend on the processing

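Over 20 alternatives, 9 of the 15 members called with miR-34a-WT against control and 6 of the 10 called with miR-34a-RS stayed called in all, and no call changed sign (signs of values called in neither setting were not compared). With the replicate block, 11 members fell with miR-34a-RS against control (7 without it; 22.0% of all tested genes) and 14 with miR-34a-WT (11 without it; 25.4% of all), 4 were higher with miR-34a-RS in the comparison of the duplexes (0 without it), and 1254 genes were called in that comparison, against 286 in the fit given first. DESeq2 called 510 and the fit with the 3′ UTR correction, chosen after seeing the data, 783. Leaving out each library gave 142 to 730 such genes, 7 to 11 members that fell with miR-34a-WT and 0 to 1 that were higher with miR-34a-RS. The cause of these differences was not tested. Same-numbered libraries deviated together on average in the comparisons with control, but not in every pair. Correlations were -0.002 to 0.478 over 4 pairs for miR-34a-RS (mean 0.27) and -0.156 to 0.557 over 5 pairs for miR-34a-WT (mean 0.29). Other pairs had a mean of -0.07 in each. For these comparisons the values with the block are given here. With miR-34a-RS it added the calls of CDKN1A (-0.36, adjusted p = 3.31e-07), MDM4 (-0.13, adjusted p = 0.00627), GADD45A (-0.17, adjusted p = 0.0151) and FDXR (-0.20, adjusted p = 0.00178). With miR-34a-WT it added TIGAR (-0.15, adjusted p = 0.0181), XPC (-0.10, adjusted p = 0.0375) and PHLDA3 (-0.25, adjusted p = 0.000177). TIGAR was also called with miR-34a-WT after the 3′ UTR correction (-0.16). Depth limits GDF15 most.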
